A study of Mus musculus with 10 samples.

Results

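Mitochondrial ribosomal proteins are encoded here by the genes whose symbol in the array annotation is Mrpl or Mrps followed by a number. The array carried 76 such genes among 22491 annotated symbols, 48 named for the large subunit (Mrpl) and 28 named for the small subunit (Mrps). Membership followed from the symbol alone, but the members were chosen with earlier results of these data known. Their transcripts were compared in monocytes sorted from the spleen, between leukaemic mice (TCL1-AT, 5 arrays) and control mice (WT, 5 arrays). All mice were C57BL/6 and 3 months old. The TCL1-AT mice were taken 6 weeks after transplantation with murine CLL (chronic lymphocytic leukaemia) cells. Those cells came from Eµ-TCL1 mice, whose TCL1 transgene is active in the B cell lineage. The WT mice had no intervention. The WT samples are labelled as pools of unstated size, and the number of mice behind a TCL1-AT sample is not given either, so the p-values measure only the spread between these samples, which may be technical. The sorting gate took Lin- cells with CD11b, intermediate F4/80, low to intermediate CD11c and little MHC-II.

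The mitochondrial ribosome translates the messenger RNAs of the mitochondrial genome, which encode core subunits of the respiratory chain and ATP synthase. Its RNAs are made in the organelle, whereas all of its proteins are encoded in the nucleus, made in the cytosol and imported. Many of these proteins descend from bacterial ribosomal families, and others exist only in mitochondrial ribosomes. The small subunit holds the messenger RNA and reads it at the decoding centre, and the large subunit joins the amino acids and releases the new chain through a tunnel towards the inner membrane.

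Each value below is the normalized log2 signal of 1 probe per gene, the one with the highest mean over the 10 arrays, and levels are not compared between genes. A probe entered the comparison if its detection p was under 0.05 on at least 5 arrays. Of the 76 genes, 71 passed, 44 of the large and 27 of the small subunit, and all 71 were detected on all 10 arrays, so none passed through one group alone. Mrpl19, Mrpl21, Mrpl32 and Mrpl45 were not detected on any array, with log2 signals of 4.06 to 4.46 over all their probes. Mrps14 came nearest to the threshold from below, detected on 2 TCL1-AT arrays and on 0 WT arrays, with log2 signals of 4.10 to 4.77. Differences are TCL1-AT minus WT, tested with limma over all 15084 features, and a gene was called where the p adjusted after Benjamini and Hochberg was under 0.05.

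Within the data set, the median raw intensity was 90.3 to 93.4 on TCL1-AT arrays and 80.4 to 92.1 on WT arrays (exact permutation p = 0.0317, 2-sided). The share of probes detected was 43.0% to 45.2% and 42.9% to 45.3% (exact permutation p = 0.667). The 9 monocyte genes on the array were all detected, with summed signals of 41600 to 44300 in TCL1-AT and 36300 to 38700 in WT. Of the 8 tested, 2 were called higher (Lyz2 at 0.29 and Cebpb at 0.55) and 1 lower (Fcgr3 at -1.85, adjusted p = 1.31e-06), and 5 differences were below 0. The counts of calls in this paragraph stand beside 12.2% of all features called higher and 15.4% called lower. Markers of other cells also moved between the groups. Of the 9 T cell markers on the array 8 were detected, Cd8a was not, their summed signal was 298 to 331 in TCL1-AT and 701 to 910 in WT, and 4 of 6 tested were called lower. The 7 erythroid markers summed to 1860 to 4880 and 372 to 1420, and 4 of 6 tested were called higher. The 10 markers of splenic macrophages, of which Cd5l was not detected, summed to 2490 to 2860 and 1910 to 2430, with 1 of 8 tested called higher and 4 lower. The 8 B cell markers were all detected and summed to 1710 to 4390 and 2630 to 3100. These sums overlapped. Of 5 tested, 2 were called higher and 0 lower, namely Cd79b (0.60, adjusted p = 0.0056) and Fcrla (0.93, adjusted p = 0.0184). Each of these 2 had no overlap between the groups. The other 3 differences were below 0 and not called, with Igh-6 at -0.48, Cd22 at -0.21 and Ms4a1 at -0.02. The median over the 5 B cell markers was -0.02. The 22 cell cycle genes summed to 2600 to 2860 and 2570 to 3470, and of 18 tested 1 was called higher and 10 lower (55.6%, against 15.4% of all features), with a median log2 difference of -0.50, among them Aurkb (-1.03) and Mki67 (-0.99). The part of these cells, of the cell cycle and of the raw intensity in the results below was not tested beyond the values given, and in bulk samples fewer cells of a type and less RNA per cell cannot be told apart.

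Most mitochondrial ribosomal protein genes differed little between leukaemic and control monocytes, and a small set moved in each direction. Of the 71 genes tested, 10 were called higher (14.1%) and 6 lower (8.45%), where 12.2% of all features were called higher and 15.4% lower. The members' shares thus lay near those of all features for rises and below them for falls, and no test was made of that difference. The log2 difference was smaller than 0.25 in size for 49 of the 71 genes and larger than 0.5 for 5. Of all 15084 features, 8397 had a difference smaller than 0.25 in size and 2467 one larger than 0.5. The log2 difference was above 0 for 45 genes (63.4%) and for 52.7% of all features. The median was 0.06 for the 44 large subunit genes and 0.06 for the 27 small subunit genes, and 0.02 for all features. In the large subunit 6 genes were called higher and 4 lower, and in the small subunit 4 higher and 2 lower. The 5 TCL1-AT arrays lay apart from the 5 WT arrays for 17 of the 71 genes, higher for 13 and lower for 4, where 20.4% of all features lay apart, 9.13% higher and 11.3% lower. With median scaling in place of quantile normalization the calls were 3 higher and 3 lower (6.66% and 11.3% of all features), and both subunit medians turned to -0.02 and -0.04.

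**Figure D1:**
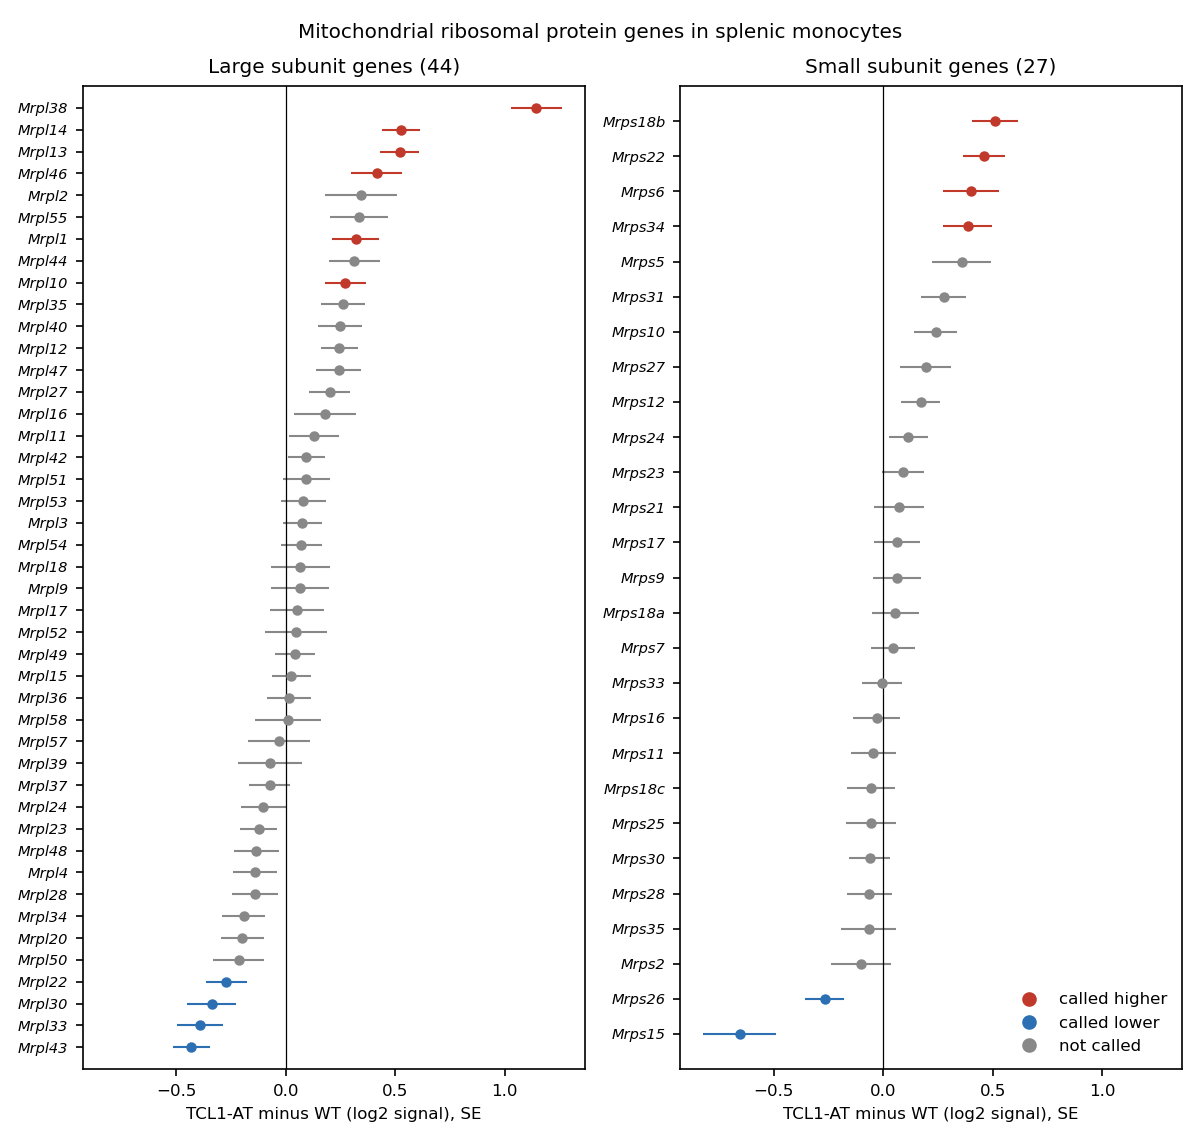
Log2 difference between TCL1-AT and WT (points, with SE as bars) for the 44 large subunit and 27 small subunit genes tested, each panel sorted by the difference. The differences run from -0.66 for Mrps15 to 1.14 for Mrpl38, and 49 of 71 lie within 0.25 of 0.

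Among large subunit genes, Mrpl38 stood apart with a 2.21-fold rise, and Mrpl14, Mrpl13 and Mrpl46 rose 1.33-fold to 1.44-fold. Mrpl43 and Mrpl33 were the largest falls, at 1.35-fold and 1.31-fold. Mrpl38 encodes a mitochondria-specific protein of the central protuberance, the crown of the large subunit. Its log2 signal was 10.45, 10.28, 10.43, 10.13 and 10.35 on TCL1-AT 1 to 5 and 9.40, 9.05, 9.28, 8.88 and 9.32 on WT 1 to 5. All TCL1-AT values lay above all WT values. The log2 difference was 1.14 (SE 0.12, limma adjusted p = 1.14e-05). A second, dimmer Mrpl38 probe gave 0.17 and was not called, and the mean of both probes gave 0.66, which was called.

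Mrpl14 encodes a member of the uL14 family at the face that meets the small subunit. Its log2 signal was 10.58, 10.66, 10.69, 10.46 and 10.67 on TCL1-AT 1 to 5 and 10.12, 10.10, 10.09, 9.98 and 10.15 on WT 1 to 5. The groups did not overlap, and the gap between the lowest TCL1-AT and the highest WT array was wider than the spread within WT. The log2 difference was 0.53 (SE 0.09, limma adjusted p = 0.000591). Mrpl13, of the uL13 family, stood at 9.98, 10.06, 9.86, 9.84 and 10.00 on TCL1-AT 1 to 5 and at 9.49, 9.34, 9.54, 9.38 and 9.39 on WT 1 to 5. The groups again did not overlap (log2 difference 0.52, SE 0.09, limma adjusted p = 0.000771). A second, dimmer Mrpl13 probe gave -0.16 and was not called, and with the mean of its probes the gene was no longer called (0.18, adjusted p = 0.185). Median scaling also ended the call of Mrpl13.

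Mrpl46, another mitochondria-specific protein of the central protuberance, stood at 9.16, 9.08, 9.24, 9.52 and 9.23 on TCL1-AT 1 to 5 and at 9.03, 8.63, 8.94, 8.61 and 8.94 on WT 1 to 5. The groups did not overlap, but TCL1-AT 2 lay close to WT 1 (log2 difference 0.41, SE 0.12, limma adjusted p = 0.0187). Mrpl1, a protein of the mobile stalk near the exit site of transfer RNA, differed by 0.32 (SE 0.11, limma adjusted p = 0.042), with TCL1-AT at 8.69 to 8.91 and WT at 8.30 to 8.73. Its groups overlapped, and its call was kept in 3 of the 10 fits that left out 1 array. A second, dimmer Mrpl1 probe (mean log2 signal 4.96, against 8.67) gave 0.00. Mrpl10 anchors the other stalk, which recruits translation factors, and differed by 0.27 (SE 0.09, limma adjusted p = 0.0452), with TCL1-AT at 10.11 to 10.30 and WT at 9.75 to 10.08. Its second probe gave 0.19. In the limma fit over all probes kept, neither Mrpl10 probe was called (adjusted p = 0.0516 for the brighter and 0.187 for the second). The call of Mrpl10 was kept in 1 of the 10 fits that left out 1 array. With the replicate number as a block neither gene was called (adjusted p = 0.0971 for Mrpl1 and 0.093 for Mrpl10).

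Other genes of the same structures were mostly not called. Mrpl12, the partner of Mrpl10 in the stalk, had TCL1-AT values of 9.29, 9.11, 9.24, 9.30 and 9.26 and WT values of 8.96, 8.91, 9.10, 8.96 and 9.05. No TCL1-AT array fell below a WT array, but the gene missed the threshold narrowly (log2 difference 0.24, SE 0.09, limma adjusted p = 0.0501). Mrpl11, at the base of this stalk, gave 0.13 (SE 0.12). Of the 7 central protuberance genes tested, Mrpl38 and Mrpl46 were called higher (28.6%) and 0 lower, against 12.2% and 15.4% of all features. Mrpl40 gave 0.25, Mrpl27 0.20, Mrpl18 0.07, Mrpl52 0.05 and Mrpl48 -0.13, and none of these 5 was called. A second, dimmer probe of Mrpl18 (mean log2 signal 4.60, against 7.96) was called lower (-0.38, adjusted p = 0.0341 over all probes kept). Of the 3 probes of Mrpl48, 1 was called lower too (-0.42, adjusted p = 0.0192).

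Mrpl43 encodes a mitochondria-specific protein of the large subunit. Its log2 signal was 9.73, 9.88, 9.74, 9.77 and 9.67 on TCL1-AT 1 to 5 and 10.22, 10.20, 10.17, 10.14 and 10.21 on WT 1 to 5. All TCL1-AT values lay below all WT values, and the WT values lay close together. The log2 difference was -0.43 (SE 0.08, limma adjusted p = 0.00179), and its second probe, at -0.35, was also called lower. Mrpl33, a small protein of the bL33 family, stood at 12.38, 12.45, 12.25, 12.00 and 12.39 on TCL1-AT 1 to 5 and at 12.59, 12.55, 12.73, 12.80 and 12.77 on WT 1 to 5. The groups did not overlap, and TCL1-AT 4 was the lowest array (log2 difference -0.39, SE 0.11, limma adjusted p = 0.0149). The second probe of Mrpl33 was called lower too, at -0.31.

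Mrpl30, of the uL30 family, differed by -0.34 (SE 0.11, limma adjusted p = 0.0361), with TCL1-AT at 9.21 to 9.60 and WT at 9.56 to 9.90. Mrpl22, which lines the exit tunnel, differed by -0.27 (SE 0.09, limma adjusted p = 0.0433), with TCL1-AT at 8.11 to 8.39 and WT at 8.45 to 8.67. The groups overlapped for Mrpl30 and not for Mrpl22. Leaving out 1 array at a time kept the call of Mrpl30 in 5 of 10 fits and that of Mrpl22 in 2 of 10, and the replicate block ended the call of Mrpl22 (adjusted p = 0.0928). Of the other tunnel exit genes, Mrpl44, which has a fold like that of ribonuclease III, gave 0.31 (SE 0.12, adjusted p = 0.0637), Mrpl17 0.05, Mrpl24 -0.10 and Mrpl23 -0.12, and none was called. Mrpl45, which touches the inner membrane, was not detected. The smallest differences in the large subunit were those of Mrpl58, a peptidyl-tRNA hydrolase that is built into the ribosome, at 0.01 (SE 0.15), and Mrpl36, at 0.01 (SE 0.10).

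Small subunit genes gave rises of 1.31-fold to 1.42-fold for Mrps18b, Mrps22, Mrps6 and Mrps34, and falls for Mrps15 and Mrps26. Mrps18b is a relative of the bacterial S18 family that sits in the small subunit. Its log2 signal was 9.33, 9.11, 9.14, 9.46 and 9.06 on TCL1-AT 1 to 5 and 8.76, 8.62, 8.70, 8.59 and 8.87 on WT 1 to 5. The groups did not overlap, and TCL1-AT 4 was the highest array. The log2 difference was 0.51 (SE 0.10, limma adjusted p = 0.00287), and both other probes of Mrps18b were called higher as well, at 0.44 and 0.46.

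Mrps22 encodes a mitochondria-specific protein, mutated in human mitochondrial disease. It stood at 8.02, 7.97, 7.82, 7.83 and 7.83 on TCL1-AT 1 to 5 and at 7.58, 7.23, 7.43, 7.45 and 7.48 on WT 1 to 5. The groups did not overlap (log2 difference 0.46, SE 0.10, limma adjusted p = 0.00311). Mrps34, also mitochondria-specific, stood at 10.21, 10.23, 10.40, 10.40 and 10.38 on TCL1-AT 1 to 5 and at 10.18, 9.79, 10.06, 9.66 and 9.99 on WT 1 to 5. TCL1-AT 1 lay just above WT 1, so the groups were apart by little (log2 difference 0.39, SE 0.11, limma adjusted p = 0.0203). Mrps6, of the bS6 family, stood at 7.67, 7.37, 7.45, 6.93 and 7.29 on TCL1-AT 1 to 5 and at 6.84, 6.83, 7.09, 6.98 and 6.96 on WT 1 to 5. TCL1-AT 4 fell among the WT values. The log2 difference of Mrps6 was 0.40 (SE 0.13, limma adjusted p = 0.0319) and 0.50 without TCL1-AT 4 (adjusted p = 0.00349), and the call was lost when any 1 of 8 other arrays was left out.

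Mrps15, of the uS15 family, stood at 5.92, 5.76, 5.74, 6.50 and 6.22 on TCL1-AT 1 to 5 and at 6.37, 7.05, 6.49, 6.69 and 6.83 on WT 1 to 5. TCL1-AT 4 lay above WT 1 and WT 3, and the other TCL1-AT arrays lay below all WT arrays. The log2 difference was -0.66 (SE 0.17, limma adjusted p = 0.0104), the lowest of all 71 genes. A second, dimmer probe gave -0.01, and with the mean of both probes Mrps15 was no longer called (-0.34, adjusted p = 0.0609). Mrps26, a mitochondria-specific protein, ranged from 8.43 to 8.61 over the TCL1-AT arrays and from 8.67 to 8.92 over the WT arrays (log2 difference -0.27, SE 0.09, limma adjusted p = 0.0397). Its second probe was called lower too, at -0.46. The call of Mrps26 was kept in 1 of the 10 fits that left out 1 array, and it was lost under median scaling, the raw intensity covariate and the replicate block.

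No other small subunit gene was called. Mrps12, at the decoding centre, gave 0.17 (SE 0.09, adjusted p = 0.169), with all TCL1-AT arrays above all WT arrays. Mrps27, a pentatricopeptide repeat protein, gave 0.19 and Mrps7, of the subunit's head, 0.05. The smallest differences were those of Mrps33, at -0.01 (SE 0.09), and Mrps16, at -0.03 (SE 0.11). The brightest probes of Mrps31 and Mrps10 gave 0.28 and 0.24 and were not called, but 1 of the 3 probes of each was called higher (0.56 for Mrps31 and 0.38 for Mrps10, adjusted p = 0.0345 and 0.0182). Structures of the mammalian ribosome place the products of Mrps18a and Mrps30 in the large subunit in spite of their names. They gave 0.06 (SE 0.11) and -0.06 (SE 0.09) and neither was called, so the numbers of called genes per subunit are the same wherever they are placed. The numbers of genes tested and the medians per subunit follow the names.

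**Figure D2:**
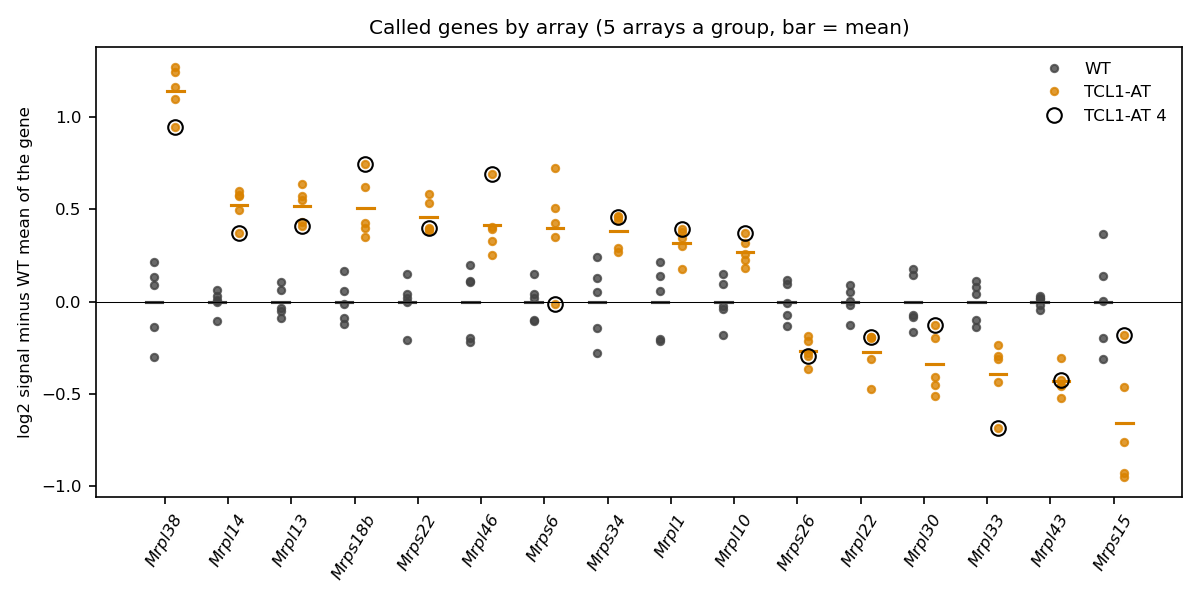
Log2 signal of each array minus the WT mean of the gene, for the 16 genes called, with 5 WT arrays (dark), 5 TCL1-AT arrays (orange) and group means as bars. TCL1-AT 4, circled, lies among the WT values for Mrps6 and is the array nearest to WT for Mrpl38, while for Mrps18b and Mrpl46 it is the highest array.

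Calls fell both on genes of bacterial descent and on mitochondria-specific ones. Of 44 tested genes with a bacterial relative, 6 were called higher and 4 lower, with a median log2 difference of 0.06. Of 27 mitochondria-specific genes, 4 were called higher and 2 lower, with a median of 0.05. All features gave 12.2% higher and 15.4% lower.

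The arrays differed in the level of these genes as a group. TCL1-AT 4 held the highest value of 24 of the 71 genes, and no other array held the highest of more than 8. WT 2 and WT 4 held the lowest value of 18 and 17 genes, and no other array the lowest of more than 10. The same counts were not made over all features, so they are not shown to be particular to these genes. As the median deviation from each gene's mean over the 10 arrays, TCL1-AT 4 stood at 0.14, WT 2 at -0.12 and WT 4 at -0.10, and the other 7 arrays between -0.02 and 0.04. The same median over all features lay between -0.03 and 0.02 on every array. Quantile normalization, which the values matched, holds that median near 0. It therefore cannot show whether the shifts were particular to these genes. Without TCL1-AT 4, the median difference was 0.03 for the large and 0.05 for the small subunit, and without WT 2 it was 0.05 and 0.02. The SD between replicate arrays had a median of 0.13 over the members in each group, and of 0.19 in TCL1-AT and 0.20 in WT over all features. All 71 members were detected on all 10 arrays, whereas all features include probes detected on fewer. The SDs were not compared at like signal.

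**Figure D3:**
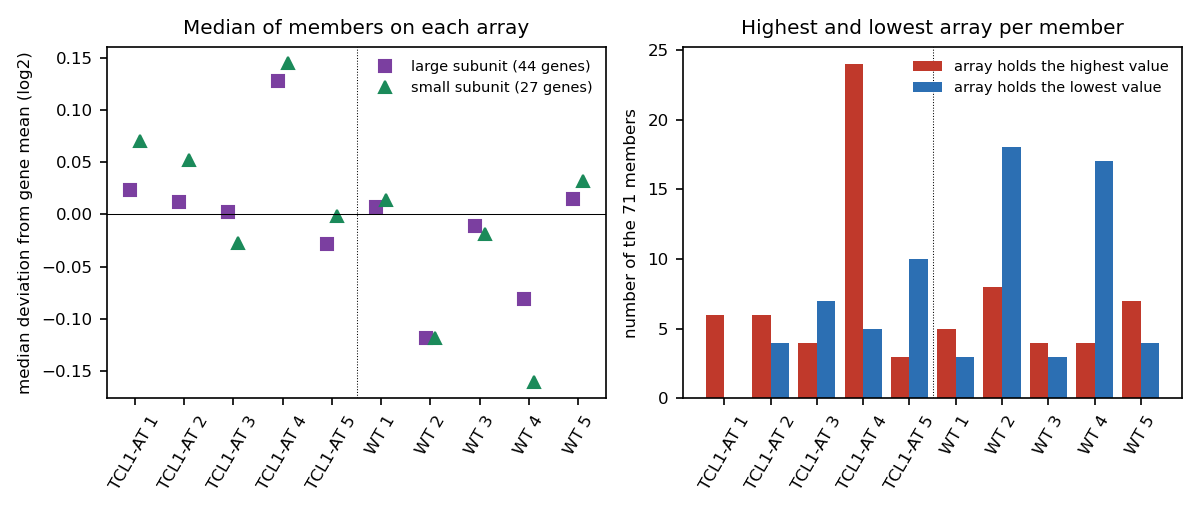
Left, the median deviation of the large and the small subunit genes from each gene's mean over the 10 arrays (log2 signal). Right, the number of the 71 genes for which an array held the highest or the lowest value, which was 24 highest for TCL1-AT 4 and 18 and 17 lowest for WT 2 and WT 4.

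The number of calls changed with the covariate, the scaling, the background correction, the detection filter and the array weights. With the median raw intensity of each array as a covariate, 5 of the 16 genes kept their call: Mrpl38, Mrpl14, Mrpl13 and Mrps18b rose and Mrpl43 fell. In that fit 5.14% of all features were called higher and 7.06% lower. The log2 differences of the 16 genes were 0.75 to 1.16 times their value without the covariate. The standard errors over all 71 genes were 1.16 to 1.52 times as large. Some uncalled genes changed more, such as Mrps27 from 0.19 to 0.00, Mrpl55 from 0.33 to 0.07 and Mrpl16 from 0.18 to 0.53. The part of raw intensity in these differences was not tested beyond these values. Without background correction 17 members were called higher and 6 lower (12.7% and 15.9% of all features), with the mean of all probes 10 and 5 (11.6% and 14.9%), and with the replicate number as a block 7 and 4 (10.1% and 13.3%). Cyclic loess gave 13 and 6 (12.2% and 15.4%), and array weights 14 and 7 (14.6% and 17.4%). Only probes detected on all 10 arrays gave 15 and 6 (16.3% and 20.7%). No detection filter gave 9 and 6 (4.9% and 6.31%). Median scaling kept the calls of Mrpl38, Mrpl14, Mrps18b, Mrpl43, Mrpl33 and Mrps15 and ended the other 10. The calls of Mrpl38, Mrpl14, Mrps18b and Mrpl43 held under 10 alternative settings and with each array left out in turn. A further setting, the repeat of the normalization from the intensity table, gave the same values and could change no call.

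**Figure D4:**
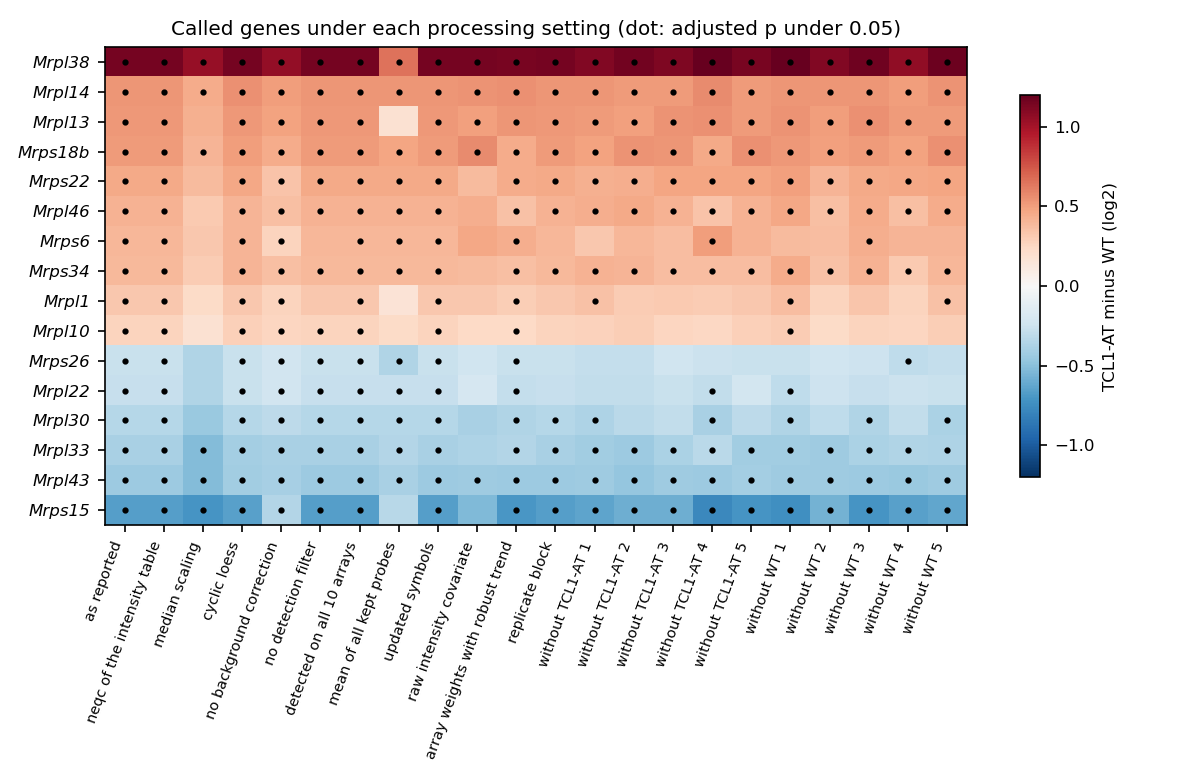
Log2 difference (colour) of the 16 called genes under each processing setting and with each array left out, with a dot where the limma adjusted p was under 0.05. The direction of every gene is the same in all columns, and Mrpl38, Mrpl14, Mrps18b and Mrpl43 have a dot in each.

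Genes that build the mitochondrial ribosome or work with it were examined as a setting for these values. Of 22 tested assembly factors, 4 were called higher and 3 lower (18.2% and 13.6%, against 12.2% and 15.4% of all features). Nsun4, which methylates ribosomal RNA in mitochondria, rose 1.60-fold (log2 difference 0.68, SE 0.11, limma adjusted p = 0.000451), Eral1, a GTPase that binds the RNA of the small subunit, 1.61-fold (0.69, SE 0.12, adjusted p = 0.00116), and Gtpbp10, a GTPase of large subunit assembly, 1.42-fold. Mtg1 and Noa1, also GTPases of assembly, fell by 0.60 and 0.37 on the log2 scale, and Rpusd4, a pseudouridine synthase, by 0.33. The groups overlapped for Mtg1 and Noa1 and not for Rpusd4. Mtg1 was dim, with detection on 3 TCL1-AT arrays and 5 WT arrays. Nsun4 stood at 9.62 ± 0.19 and 8.95 ± 0.11 and Eral1 at 8.39 ± 0.13 and 7.70 ± 0.25 (SD, n = 5 arrays each), with no overlap between the groups for either gene.

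The lists that follow are read against the 12.2% of all features called higher and the 15.4% called lower. Of 14 mitochondrial translation factors, 2 were called higher (14.3%) and 0 lower. Tsfm, the exchange factor of the elongation factor Tu, rose by 0.44 (SE 0.12, adjusted p = 0.0127), and Gfm2, a ribosome recycling factor listed on the array as A930009M04Rik, by 0.54 (SE 0.12, adjusted p = 0.00541). Of 10 genes of mitochondrial transcription and genome maintenance, 2 were called higher, namely Mterf1a (0.70) and Tefm (0.61), which act in transcription. The 3 called lower, Polg (-0.46), Polg2 (-0.41) and Twnk (-0.53), encode the mitochondrial DNA polymerase and the helicase of the replication fork. The 5 not called were Polrmt (0.24), Tfam (-0.29), Ssbp1 (-0.08), Top1mt (0.03) and Tfb2m (-0.02), and a split of the list by function was not tested. Of 10 regulators of mitochondrial biogenesis, 4 were called higher and 1 lower, among them Pprc1 (0.39) and Gabpb1 (0.56), a coactivator and a subunit of the factor GABP, and Mlx (-0.33). Of 4 mitochondrial ribosomal proteins under other symbols, none was called in limma's test, with 2 at an unadjusted p under 0.05: Dap3 gave 0.28 and Ptcd3 -0.45 (adjusted p = 0.107 and 0.0503). Of 19 genes of import and quality control 2 were called higher (10.5%), Timm17a (0.37) and Clpp (0.41), and 2 lower, Clpx (-0.28), the partner of Clpp in its protease, and Hspe1 (-0.54), a mitochondrial chaperonin.

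Beside the 71 genes, the cytosolic ribosomal proteins had more falls than rises, with 2 of 58 called higher (3.45%) and 20 lower (34.5%) and a median of -0.19. Respiratory chain and ATP synthase subunits had 8 of 73 called higher (11%) and 12 lower (16.4%), near the shares of all features, and a median of 0.01. These counts are given as values, with no test of the difference between the families.

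A number of mitochondrial ribosomal protein genes lie head to head with another gene, with both start sites close together on opposite strands. In the RefSeq promoter table (GRCm38.p6), which holds 67 of the 76 genes, 23 (34.3%) had a partner on the other strand whose start site diverged within 500 bases, against 10.9% of the 27025 genes in the table. In 14 pairs both genes were tested. The log2 differences of the pair had the same sign in 7 of the 14 pairs, against 57.0% of 374 such pairs over all genes. Both genes were called in 3 pairs, in the same direction in 2 of them, and over all genes in 35 pairs, in the same direction in 28.

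The pairs called together went both ways. Mrpl14 rose with its partner Tmem63b, a mechanosensitive ion channel gene, with a log2 signal of 9.17 ± 0.27 on the TCL1-AT and 7.89 ± 0.23 on the WT arrays (SD, n = 5 per group; log2 difference 1.28, SE 0.15, limma adjusted p = 3.04e-05). Mrpl43 fell with its partner Twnk, the mitochondrial DNA helicase (log2 difference -0.53, SE 0.17, limma adjusted p = 0.0326), whose groups overlapped. Mrpl30 fell, whereas its partner Mitd1, which acts in cell division, rose (0.49, SE 0.09, limma adjusted p = 0.00165). Mrpl46 and Mrps11 are partners of each other within the family, with start sites 42 bases apart, and gave 0.41 and -0.05 (SE 0.10), so that 1 was called and the other was not. In 2 further pairs only the partner was called, with Klc4 beside Mrpl2 at -0.71 and Ndufb5 beside Mrpl47 at -0.50. The annotated spans of Mrpl14 and Tmem63b, of Mrpl43 and Twnk and of Mrps6 and Slc5a3 overlap, and whether a probe also reads its neighbour was not tested.

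**Figure D5:**
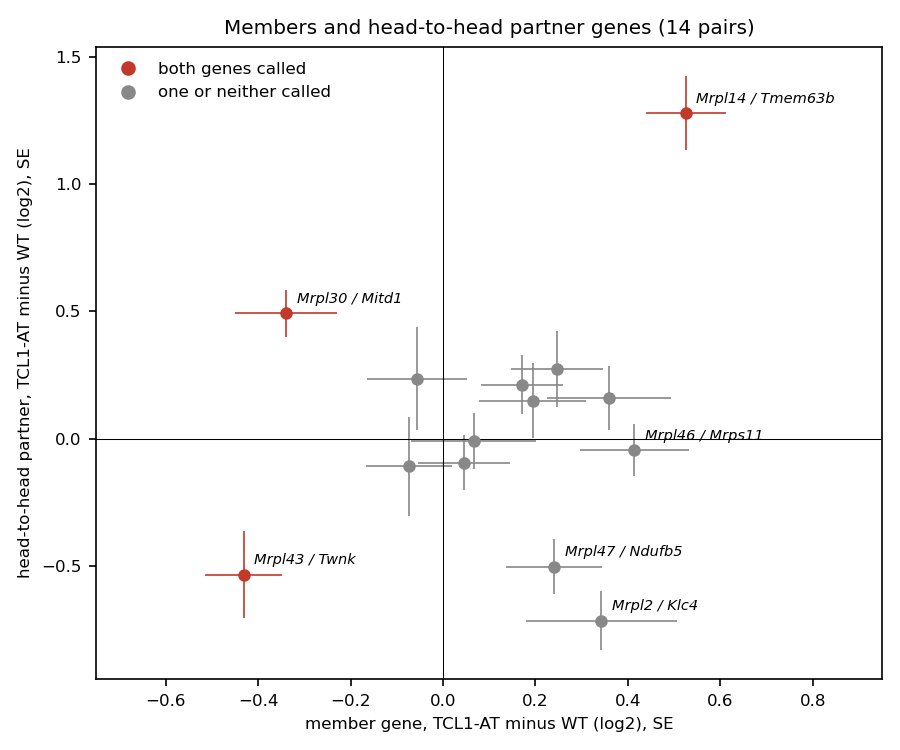
Log2 difference of 14 mitochondrial ribosomal protein genes (horizontal axis) and of their head-to-head partner genes (vertical axis), with SE as bars and pairs called in both genes in red. Mrpl14 with Tmem63b lies in the upper right, Mrpl43 with Twnk in the lower left, and Mrpl30 with Mitd1 in the upper left.

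The promoters of Mrpl14, Mrpl43, Mrpl30 and Mrpl46 are shown because these 4 genes were called and share their start region with a tested partner. Each runs from 250 bases before to 50 after the start site given by RefSeq (GRCm38.p6), 5′ to 3′ on the strand of the gene. They lie at chr17:45686099-45686398 (plus strand), chr19:45006393-45006692 (minus strand), chr1:37890227-37890526 (plus strand) and chr7:78783040-78783339 (minus strand). Capitals mark matches to 4 motifs on either strand. These are CCGGAAG, the core bound by ETS factors such as GABP, GCGCA, any base and GCGC in a row, bound by NRF1, CACGTG, the E-box, and AAGATGGCG, bound by YY1. The ETS and YY1 motifs can share the letters AAG.
Mrpl14: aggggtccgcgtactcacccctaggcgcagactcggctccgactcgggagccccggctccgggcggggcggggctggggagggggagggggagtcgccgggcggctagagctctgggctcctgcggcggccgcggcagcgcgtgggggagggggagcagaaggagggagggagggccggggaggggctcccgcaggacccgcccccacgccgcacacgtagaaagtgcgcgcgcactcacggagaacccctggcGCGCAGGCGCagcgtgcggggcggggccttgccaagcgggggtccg
Mrpl43: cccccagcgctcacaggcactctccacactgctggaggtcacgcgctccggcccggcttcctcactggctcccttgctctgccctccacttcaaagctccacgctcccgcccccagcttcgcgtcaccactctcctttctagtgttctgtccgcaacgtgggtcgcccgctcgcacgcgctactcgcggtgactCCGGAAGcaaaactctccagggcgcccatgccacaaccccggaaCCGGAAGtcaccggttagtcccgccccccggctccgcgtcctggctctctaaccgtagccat
Mrpl30: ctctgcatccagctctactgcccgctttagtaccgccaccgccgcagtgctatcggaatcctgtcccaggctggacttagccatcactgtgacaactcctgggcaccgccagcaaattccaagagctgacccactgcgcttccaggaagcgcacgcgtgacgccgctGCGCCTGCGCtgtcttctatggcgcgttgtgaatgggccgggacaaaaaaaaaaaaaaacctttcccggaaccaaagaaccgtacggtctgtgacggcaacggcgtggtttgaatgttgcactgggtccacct
Mrpl46: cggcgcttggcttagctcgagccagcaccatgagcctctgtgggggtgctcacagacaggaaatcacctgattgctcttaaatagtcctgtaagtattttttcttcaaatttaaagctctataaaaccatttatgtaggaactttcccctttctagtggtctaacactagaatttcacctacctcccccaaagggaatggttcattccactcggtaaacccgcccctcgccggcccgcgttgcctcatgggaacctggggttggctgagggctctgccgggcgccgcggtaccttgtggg

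Mrpl14 and Mrpl30 held 1 match each to the NRF1 motif, Mrpl43 held 2 matches to the ETS core and Mrpl46 held none of the 4 motifs. The ETS core was present in 26 of the 67 members in the table (38.8%), against 9.93% of all 27025 genes, and the NRF1 motif in 13 (19.4%), against 5.19%. The YY1 motif was present in 8 members (11.9%), against 1.64%, and the E-box in 5 (7.46%), against 8.09%. Matches to the ETS core and to the NRF1 motif occurred in called and in uncalled genes. The ETS core was in 2 of 7 genes called higher, 4 of 6 called lower and 19 of 50 not called, and the NRF1 motif in 1, 2 and 8 of them. The YY1 motif was in 0, 0 and 8 of these genes and the E-box in 0, 0 and 5. A match is a description of the letters and not of binding, and the arrays measured transcripts only.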

How the data were processed

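Each array measured total RNA of sorted monocytes, of which 150 ng were turned into biotinylated cRNA, per the labels' protocols. The deposited non-normalized table gives a linear signal intensity and a detection p-value per probe and array for 46237 probes, per the file headers. The series matrix deposited by the authors gives the arrays as log2 values, on a scale not given in the sources used here. From the values it matched normexp correction (offset 16) with quantile normalization of the intensity table to within 0.00043, and had a median of 4.3 on every array. Every value column belonged to 1 of the 10 samples.

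The log2 values of the series matrix were used. The 20241 probes that 5 or more arrays detected at p under 0.05 were named by the platform annotation (35784 probes with 1 symbol, 0 with several, 10453 not listed) and reduced to the brightest probe per gene, which left 11731 genes and 3353 unnamed probes. TCL1-AT and WT were compared with lmFit and eBayes of limma 3.58.1 in R 4.3.3, 2-sided, with Benjamini-Hochberg adjustment over all 15084 features. The fit was tested on simulated data. Array quality was compared with exact permutation tests, whose smallest possible p is 0.00794. For arrays, their number limits the precision. The members and lists were chosen with earlier results of these data known. Named genes were, per subunit, up to 8 called rises and 8 called falls, the 2 smallest differences, genes with a listed structural role, members that missed the detection filter, members with probes called in opposite directions (0) and up to 3 called genes per context list with the lowest p. Other genes named beside these, such as Mrps10, Mrps31, the partner genes and further called genes of the lists, were chosen after their values were seen. Of the other marker lists, those of neutrophils (0 of 11 tested called higher, 1 lower), plasma cells (1 higher and 1 lower of 3) and dendritic cells (2 higher and 2 lower of 5) had summed signals whose ranges overlapped between the groups. NK cell markers summed to 1210 to 3400 in TCL1-AT and 661 to 1000 in WT (1 higher and 0 lower of 3). Over all features 12.2% were called higher and 15.4% lower. Alternatives covered normalization, background correction, filters, probe choice, symbols, a raw intensity covariate, array weights, a replicate block and leaving out each array. Samples with the same replicate number had residual correlations of -0.177 to 0.2, so the numbers were not taken as pairs.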

Additional observations from a re-analysis of the deposited data

Results flagged for a closer look

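Among 36 named members, 72 groups of 5 arrays were searched for an array far from the rest, and 3 were found, where chance gives about 1 in 20 groups. Mrpl44 on TCL1-AT 4 was 8.21, with the other TCL1-AT arrays at 7.70 to 7.81 (log2 signal). Mrpl27 on TCL1-AT 4 was 8.87, with the others at 8.52 to 8.61. Mrpl24 on WT 5 was 9.06, with the other WT arrays at 9.36 to 9.47. TCL1-AT 4 also held the highest value of 24 of the 71 members, a count that was not made over all features. Without TCL1-AT 4 the difference of Mrpl44 was 0.22 and that of Mrpl27 was 0.14.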

How the results depend on the processing

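No member changed direction with a call under any setting. Of the 16 called members, 10 kept the call with each array left out in turn and 4 kept it under all settings. Mrps6, Mrpl1, Mrpl10, Mrps26, Mrpl22 and Mrpl30 each lost it in at least 5 of these 10 fits. Without 1 array, the large subunit had 4 to 7 genes called higher and 2 to 4 lower, and the small subunit 3 to 4 higher and 1 to 2 lower, and the medians ran from 0.03 to 0.08 and from 0.02 to 0.10. In these fits 9.57% to 13.7% of all features were called higher and 12.6% to 15.5% lower. The 16 calls fell to 10 without TCL1-AT 3 and to 10 without WT 2. Falls in the large subunit dropped to 2 without TCL1-AT 2, 3 or 5 or WT 2 or 4, and small subunit falls to 1 without any array other than WT 4. With median scaling 2 large subunit genes were higher and 2 lower, 1 small subunit gene was higher and 1 lower, and the medians were -0.0239 and -0.0351. Without background correction 10 large and 7 small subunit genes were higher. With the raw intensity covariate 3 large subunit genes were higher and 1 lower, and 1 small subunit gene was higher and 0 lower. The mean of all probes left 1 small subunit gene lower. With the replicate block 11 of the 16 calls remained, with 1 small subunit gene lower, and the lost calls were Mrps6, Mrpl1, Mrpl10, Mrps26 and Mrpl22. No slide block could be run, since the files give no slide. Where a setting changed a count, the cause was not tested.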
